A study of Arabidopsis thaliana with 12 samples.

Results

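The genes described here form a module of 47 Arabidopsis genes that were higher in dexamethasone treated than in mock treated explants at both 6 h and 24 h, out of 37336 genes in the count files. The members were selected on the measurements themselves. A member had a mean count of at least 50 reads over the 4 libraries of 24 h, a lower dexamethasone library at least 2 times the higher mock library at 24 h, and a mean dexamethasone level at least 1.25 times the mock mean at 6 h. Levels are counts per 1000000 reads on genes (CPM). Another 4 genes that meet these limits, *AP1*, *RAX1*, *TFL1* and *GA2OX4*, were left out of the module, and 122 genes met the 24 h limits but not that of 6 h. Because the 6 h and 24 h libraries chose the members, their values at those times are given as a description without a test. The 1 h libraries played no part in the choice and were tested.

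All explants came from plants of the Landsberg *erecta* accession (L.er) that carry 35S:LFY-GR, a fusion of the plant transcription factor LEAFY (LFY) to the steroid binding domain of the glucocorticoid receptor, driven by the 35S promoter, which is active in most cells. The roots of seedlings grown for 3 weeks were kept on callus inducing medium (CIM) for 5 days, and dexamethasone (Dex), the steroid that lets the fusion enter the nucleus, or the mock solution (Mock) was present for the last 1, 6 or 24 h. The Dex groups (1hrDex, 6hrDex and 24hrDex) and the Mock groups (1hrMock, 6hrMock and 24hrMock) have 2 libraries each, labelled A and B. Dexamethasone was not applied to explants without the fusion, so effects of the steroid alone and of LFY-GR cannot be told apart. In bulk explants, a change in RNA per cell and a change in the share of the cells that hold it cannot be told apart either.

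LFY is a master regulator of floral fate in plants. It binds DNA at a motif with the core CCANTGG and activates genes of the floral meristem in cells that would otherwise form other organs. In the root explants the steroid starts this program in callus, a tissue with the character of a lateral root primordium. Some members of the module have known roles in boundaries and organ growth, in gibberellin metabolism, or in the response of plants to a shortage of sugar, nitrogen or phosphate.

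The libraries held from 18511462 to 66789371 reads on annotated genes, the fewest at 24 h, and between 6.90% and 22.2% of reads were set aside by the counting because they mapped to several places. *LFY* itself had 943 and 827 CPM in 24hrDex, against 589.7 and 549.0 CPM in 24hrMock, and the reads of the transgene and of endogenous *LFY* are counted together. *ACTIN7* (*ACT7*) had between 543 and 750.0 CPM. The 10 markers of root callus and root stem cells summed to between 1529 and 1872 CPM in the 12 libraries, against 44.2 to 99.96 CPM for 7 markers of photosynthetic shoot tissue. Markers of flower organs, also 7, summed to between 12.3 and 23.3 CPM, most of it *PI*. It had 21.8 and 20.95 CPM in 24hrDex, against 13.6 and 13.45 CPM in 24hrMock (edgeR adjusted p = 0.000147), and 19.96 and 15.52 CPM in 1hrMock. Only 2 of these markers had enough reads to be tested at 24 h, and the other, *SHP1*, had a log2 fold change of -0.21 with an SE of 0.53. At 24 h the root callus markers summed to 1529 and 1609 CPM in Dex, against 1852 and 1872 CPM in Mock, with 1 gene called higher and 5 called lower, and their part in the values of the members was not tested. For the libraries of 1, 6 and 24 h edgeR estimated biological coefficients of variation of 0.141, 0.0964 and 0.0611. The p-values measure the spread between these libraries.

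The module as a whole was most separated at 24 h. Its log2 fold changes of Dex over Mock ranged from 1.00 to 5.33 at 24 h with a median of 1.79, and from 0.30 to 3.32 at 6 h with a median of 0.71. In 46 of the 47 members the 24 h value was the larger, the exception being AT2G34350, a transporter-like protein, with 1.00 ± 0.23 at 24 h and 1.16 ± 0.14 at 6 h (log2 fold change ± SE). Both Dex libraries lay above both Mock libraries in 43 members at 6 h, where 25.3% of 20829 tested genes did so, and in all 47 at 24 h. edgeR's quasi-likelihood test at an adjusted p under 0.01 called 0 members at 6 h, where it called 0.0048% of all genes, while 37 members had an unadjusted p under 0.05 and were higher, where 6.94% of all tested genes did, and DESeq2 called 17, where it called 0.944% of 20013 genes. The number of all genes called at 6 h was 1, but 8275 without 6hrMock A and 2950 without 6hrMock B. At 24 h edgeR called 6.77% of 19288 genes higher and 8.76% lower. Calls of members are not given for these times, because the libraries of 6 h and 24 h chose the members. For the same reason no weight is placed on the counts of members with separated libraries.

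**Figure D1:**
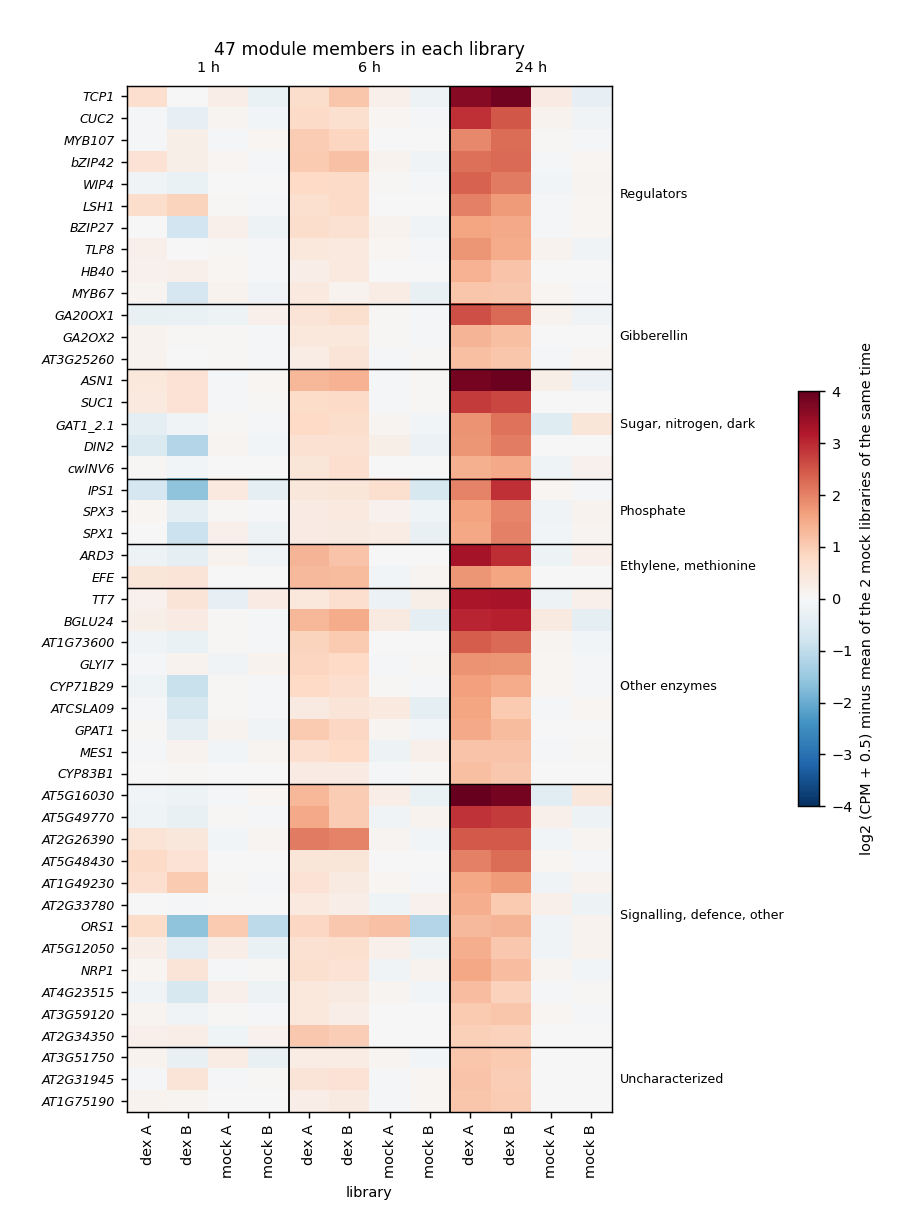
The heat map shows each of the 47 members (rows, grouped by role) in each of the 12 libraries (columns, Dex left of Mock at 1, 6 and 24 h) as log2 (CPM + 0.5) minus the mean of the 2 Mock libraries of the same time. The 24hrDex columns are the darkest red, the 6hrDex columns are paler, and the 1hrDex columns hold both red and blue cells.

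The levels of the members spanned a wide range. The mean 24hrDex level ran from 3.62 to 289 CPM with a median of 10.8 CPM, 22 members were under 10 CPM and 5 were over 100 CPM. The members lie on all 5 chromosomes, with 12, 10, 10, 4 and 11 of them on chromosomes 1 to 5. The serpin gene AT2G26390 and *ARD3* (AT2G26400) are adjacent on the minus strand of chromosome 2, separated by 1171 bases without another annotated gene between them.

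Regulators of transcription and development made up 10 of the members. The largest 24 h change among them was that of *TCP1*, a relative of the floral symmetry gene CYCLOIDEA of snapdragon. It had 10.9 and 13.0 CPM in 24hrDex, against 0.657 and 0.233 CPM in 24hrMock. In 6hrDex it had 1.13 and 1.65 CPM, against 0.655 and 0.372 CPM in 6hrMock, and in 1hrDex 0.818 and 0.313 CPM, against 0.490 and 0.182 CPM in 1hrMock. The 1 h libraries overlapped and those of 6 h and 24 h did not, and the log2 fold changes were 0.80 ± 0.63, 1.44 ± 0.35 and 4.64 ± 0.30 at 1, 6 and 24 h.

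*CUC2*, a NAC factor that sets the boundaries between organs, had 20.7 and 15.2 CPM in 24hrDex, against 2.63 and 2.05 CPM in 24hrMock. At 6 h it had 2.05 and 1.84 CPM in Dex, against 1.08 and 0.914 CPM in Mock. At 1 h the values of 1.14 and 0.869 CPM in Dex overlapped those of 1.32 and 1.09 CPM in Mock. Thus *CUC2* was separated from 6 h on, with a log2 fold change of 2.88 ± 0.20 at 24 h.

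*LSH1*, whose product belongs to the ALOG family of nuclear proteins that act in light responses and organ boundaries, stood apart at every time. It had 27.8 and 31.6 CPM in 1hrDex, against 17.3 and 16.2 CPM in 1hrMock, and 28.7 and 31.2 CPM in 6hrDex, against 18.15 and 17.97 CPM in 6hrMock. At 24 h it had 101 and 81.7 CPM in Dex, against 23.1 and 26.3 CPM in Mock. Its log2 fold changes were 0.90 ± 0.14, 0.71 ± 0.08 and 1.84 ± 0.09 at 1, 6 and 24 h, so that the difference at 1 h was no smaller than that at 6 h.

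Both bZIP factors and both MYB factors of the module were low in Mock. *bZIP42* had 11.1 and 11.8 CPM in 24hrDex, against 1.89 and 2.19 CPM in 24hrMock, and 1.91 and 2.16 CPM in 6hrDex, against 0.809 and 0.558 CPM in 6hrMock. *BZIP27*, also known as FD PARALOG after the floral regulator FD, had 9.07 and 8.75 CPM in 24hrDex, against 2.59 and 2.89 CPM in 24hrMock. *MYB107*, which promotes suberin synthesis in the seed coat, had 5.19 and 6.66 CPM in 24hrDex, against 1.04 and 0.978 CPM in 24hrMock. For these genes the log2 fold changes at 6 h were 1.56 ± 0.24 (*bZIP42*), 0.76 ± 0.17 (*BZIP27*) and 1.62 ± 0.27 (*MYB107*), while *MYB67* had 0.33 ± 0.32 with overlapping libraries. The remaining regulators were *WIP4*, a zinc finger factor of root initiation in the embryo, *TLP8*, a tubby-like protein, and *HB40*, a homeobox factor that acts in axillary buds. The 24 h log2 fold changes of *WIP4* and *TLP8* were 2.33 ± 0.16 and 1.62 ± 0.13, and *HB40* had 17.2 and 14.4 CPM in 24hrDex, against 6.14 and 6.33 CPM in 24hrMock. In a list of meristem, boundary and axillary regulators *RAX1*, left out of the module, rose at 24 h by edgeR's test, and of the other 10 tested genes that are not members 3 rose and 1 fell. Of a list of 23 floral and inflorescence regulators, 13 had enough reads to be tested at 24 h. Among the 11 tested beside *AP1* and *TFL1*, 8 rose. These were *SEP2*, *PI*, *LMI1*, *PNY*, *TEM1*, *TEM2*, *FD* and *LFY*, whose reads include those of the transgene. Of all tested genes, 6.77% were called higher at 24 h.

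The LFY core motif was searched in the 1000 bases before the annotated start of each gene in the TAIR10.1 reference sequence, which is that of the Col-0 accession and not of the L.er explants. The motif reads the same on both strands. CCANTGG occurred in 10 of the 47 members (21.3%), against 9.09% of 121 genes that met only the 24 h limits, 12.5% of 18596 protein coding genes tested at 24 h and 12.3% of 27443 protein coding genes in all. The members with the motif had a median log2 fold change of 1.82 at 24 h and 0.10 at 1 h, against 1.77 and 0.06 for the members without it. Members with the motif that are not regulators were AT1G49230, AT1G73600, AT3G59120, AT4G23515 and *SPX1*, and their windows are not shown. Windows of 30 bases from the regulators with a match are shown. They are printed on the strand of the gene and with the motif in capitals.
LSH1, chr5:10455704-10455733, minus strand: ccccactttaaCCATTGGtcacactctctt
TCP1, chr1:25170065-25170094, minus strand: aaaactagaaaCCACTGGacaaaagaatag
WIP4, chr3:7316127-7316156, minus strand: taggttttttgCCATTGGctacttcttaat
TLP8, chr1:5514499-5514528, minus strand: ggcggccatagCCATTGGaacggcgaatct
HB40 (distal), chr4:17316834-17316863, minus strand: gaatgtcctctCCATTGGacatcacattct
HB40 (proximal), chr4:17316487-17316516, minus strand: ctaaatcacgtCCAGTGGtaattccgtaat
The motif begins 41 bases before the annotated start of *LSH1*, 376 bases before that of *TCP1*, 262 bases before that of *WIP4*, 537 bases before that of *TLP8*, and 411 and 64 bases before that of *HB40*. A match describes the letters in these windows and does not show that LFY was bound there, and the other 5 regulators, *CUC2*, *BZIP27*, *bZIP42*, *MYB107* and *MYB67*, had no match in theirs.

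**Figure D2:**
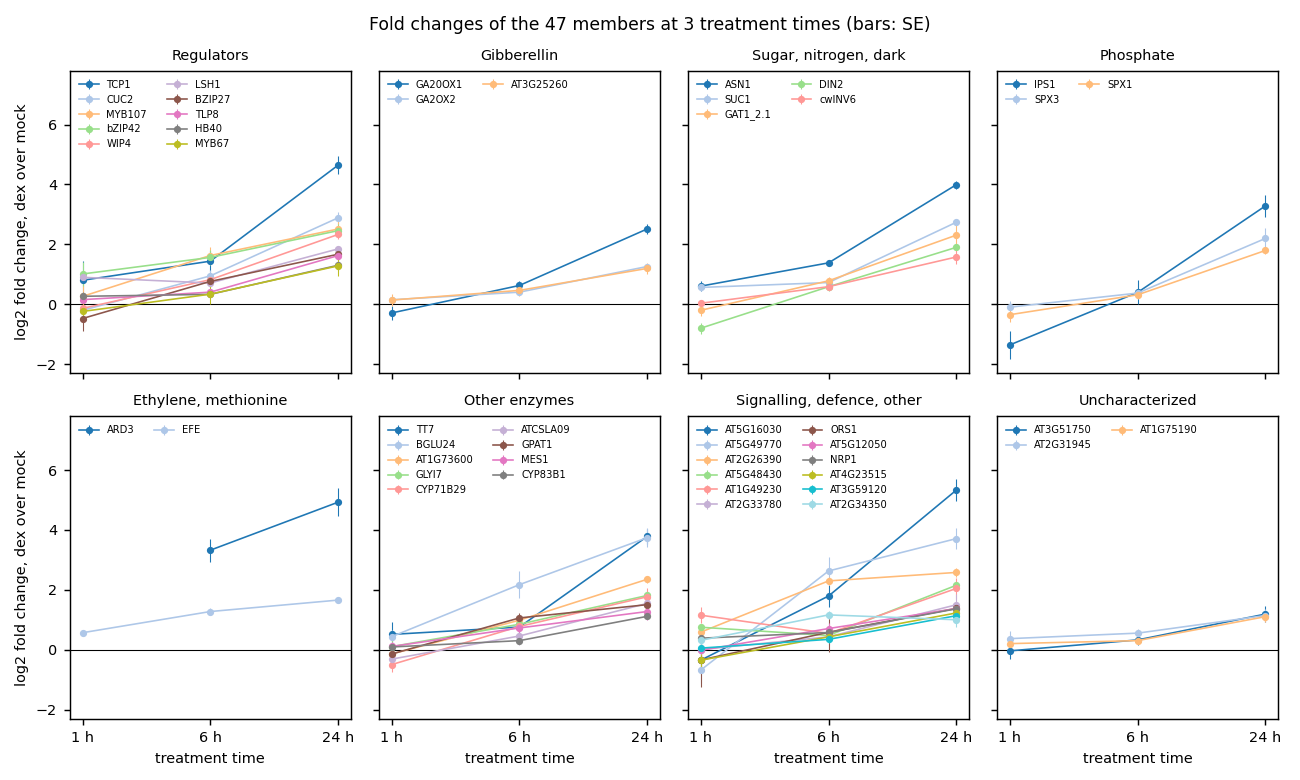
The panels show the log2 fold change of Dex over Mock (vertical axis, with bars of 1 SE) at 1, 6 and 24 h (horizontal axis) for each member, in 8 groups by role. Most lines climb from 6 h to 24 h, the phosphate genes and *DIN2* start below 0 at 1 h, and *ARD3* has no 1 h point because too few reads were counted.

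Gibberellins promote growth and the change to flowering, and 3 members act on these hormones. *GA20OX1*, an enzyme of gibberellin synthesis, had 26.0 and 21.2 CPM in 24hrDex, against 4.41 and 3.58 CPM in 24hrMock. *GA2OX2*, which inactivates gibberellins, had 141 and 128 CPM in 24hrDex, against 54.8 and 54.7 CPM in 24hrMock. The genes of synthesis and of inactivation were thus both higher, with log2 fold changes of 2.51 ± 0.16 (*GA20OX1*) and 1.26 ± 0.07 (*GA2OX2*) at 24 h and of 0.62 ± 0.14 and 0.40 ± 0.06 at 6 h. AT3G25260, which encodes the membrane carrier NPF4.1, had 11.6 and 10.9 CPM in 24hrDex, against 4.56 and 5.03 CPM in 24hrMock. Beside *GA2OX4*, which met the limits but was left out of the module and rose at 24 h, 3 of the other 9 tested genes of gibberellin enzymes and receptors rose and 2 fell. *GA2OX4* was also the 1 gene of the list called at 6 h (edgeR adjusted p = 0.0039), and 0 were called at 1 h.

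A group of 5 members acts in sugar and nitrogen use or responds to darkness, of which *ASN1*, *DIN2* and *GAT1_2.1* stand in the list of dark and sugar starvation genes, *SUC1* in that of sugar carriers and *cwINV6* in neither. *ASN1*, an asparagine synthetase that stores nitrogen when sugar is short, had 55.9 and 59.5 CPM in 24hrDex, against 4.13 and 2.84 CPM in 24hrMock. It had 25.6 and 26.6 CPM in 6hrDex, against 9.46 and 10.2 CPM in 6hrMock, and 9.03 and 10.3 CPM in 1hrDex, against 6.36 and 6.98 CPM in 1hrMock. The libraries of *ASN1* did not overlap at any time, and its log2 fold changes were 0.60 ± 0.17, 1.38 ± 0.10 and 3.99 ± 0.13. An annotated gene on the opposite strand overlaps *ASN1*, and reads were counted without regard to strand.

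*SUC1*, a sucrose carrier of the plasma membrane, had 129.9 and 119 CPM in 24hrDex, against 17.9 and 18.5 CPM in 24hrMock. In 1hrDex it had 127 and 143 CPM, against 93.6 and 99.2 CPM in 1hrMock, and in 6hrDex 46.3 and 47.4 CPM, against 26.6 and 29.1 CPM in 6hrMock. The Dex level of *SUC1* at 24 h was thus near that at 1 h, while the 24 h Mock level was 0.189 of the 1 h Mock level. *DIN2*, a beta-glucosidase induced by darkness, had 108 and 133 CPM in 24hrDex, against 31.5 and 31.6 CPM in 24hrMock, and 162 CPM in each 6hrDex library, against 124 and 90.03 CPM in 6hrMock. At 1 h the order was the other way round, with 47.1 and 30.5 CPM in Dex, against 75.7 and 64.7 CPM in Mock. *GAT1_2.1*, a class I glutamine amidotransferase, had 5.02 and 6.70 CPM in 24hrDex, against 0.657 and 1.72 CPM in 24hrMock, and *cwINV6*, a fructan exohydrolase, 8.70 and 9.37 CPM in 24hrDex, against 2.55 and 3.40 CPM in 24hrMock. Of the other 20 tested genes of a list of dark and sugar starvation genes, 7 rose and 3 fell at 24 h, with a median log2 fold change of 0.18. Of 15 other genes for sugar carriers and trehalose phosphatases, 2 rose and 2 fell. Of 9 markers of senescence, wounding and defence, *SAG12*, *PR1* and *PDF1.2A* had 0 reads in all 4 libraries of 24 h, and most of the summed level of 54.6 and 82.3 CPM in 24hrDex, against 47.6 and 47.8 CPM in 24hrMock, was that of the heat shock gene *HSP101*, with 54.02 and 81.7 CPM in 24hrDex, against 46.6 and 46.2 CPM in 24hrMock. Their part in the values of *DIN2* and *ASN1* was not tested.

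The phosphate starvation response gave 3 members. SPX proteins bind and inhibit the factor PHR1 when phosphate is plentiful, and *IPS1* is a noncoding RNA that captures the microRNA miR399. *SPX1* had 53.0 and 74.0 CPM in 24hrDex, against 16.5 and 19.4 CPM in 24hrMock. *SPX3* had 4.05 and 5.33 CPM in 24hrDex, against 0.850 and 1.16 CPM in 24hrMock. *IPS1* had 3.73 and 7.64 CPM in 24hrDex, against 0.618 and 0.512 CPM in 24hrMock. The 3 genes had the lowest median log2 fold change of the groups at 1 h, with -0.35, and 0.37 at 6 h and 2.19 at 24 h. At 6 h *IPS1* had 4.98 and 5.15 CPM in Dex, against 5.67 and 2.09 CPM in Mock, so that its libraries overlapped. All 3 genes met the 6 h limit only with 6hrMock B included. A list of 24 phosphate starvation genes was drawn up after these members were seen and is a description. Of its other 18 genes with enough reads at 24 h, 17 had a positive log2 fold change and their median was 0.58, and over the whole list the median was -0.05 at 1 h.

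The factor PHR1 binds the motif GNATATNC, known as P1BS, which also reads the same on both strands. It occurred in the 1000 bases before the start of 13 members (27.7%), against 25.6% of the genes that met only the 24 h limits, 20.4% of protein coding genes tested at 24 h and 20.3% of all protein coding genes. Each of the phosphate genes had a match, and 30 bases around it are shown with the motif in capitals.
SPX1, chr5:6801536-6801565, plus strand: tttcctatcaaGAATATTCcatggaatcca
SPX3 (distal), chr2:18606186-18606215, plus strand: tattagagaccGAATATGCcagaggatttg
SPX3 (proximal), chr2:18606309-18606338, plus strand: gctaaagctaaGCATATCCgctttcatatt
IPS1 (distal), chr3:3050396-3050425, plus strand: ttttggtaacgGCATATTCcatcggatgat
IPS1 (proximal), chr3:3050430-3050459, plus strand: aattctcaaaaGCATATTCacgtaagactc
These begin 735 bases before the start of *SPX1*, 213 and 90 bases before that of *SPX3* and 582 and 548 bases before that of *IPS1*. The members with a P1BS match had a median log2 fold change of -0.10 at 1 h, against 0.09 for those without, and of 2.19 at 24 h, against 1.64 for those without.

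Ethylene synthesis and the recycling of its methionine precursor gave 2 members. *EFE* encodes ACC oxidase, which makes ethylene in the last step of the pathway. It had 62.9 and 64.3 CPM in 1hrDex, against 44.7 and 45.1 CPM in 1hrMock, 48.6 and 48.0 CPM in 6hrDex, against 18.2 and 21.0 CPM in 6hrMock, and 77.7 and 68.2 CPM in 24hrDex, against 22.8 and 22.3 CPM in 24hrMock. The groups were separated at each time, with log2 fold changes of 0.57 ± 0.10, 1.27 ± 0.11 and 1.66 ± 0.09. *ARD3*, an acireductone dioxygenase of methionine salvage, was nearly without reads in Mock. It had 115 and 107 reads in 24hrDex, against 2 and 6 reads in 24hrMock, and 65 and 52 reads in 6hrDex, against 4 and 6 reads in 6hrMock. With 6 and 3 reads in 1hrDex and 13 and 7 reads in 1hrMock it was too low for the 1 h test. Its log2 fold changes were 3.32 ± 0.39 at 6 h, the largest of the module at that time, and 4.92 ± 0.46 at 24 h. The adjacent serpin gene AT2G26390 had 9.15 and 8.56 CPM in 6hrDex, against 1.95 and 1.61 CPM in 6hrMock, and 21.3 and 21.6 CPM in 24hrDex, against 3.17 and 3.86 CPM in 24hrMock. The pair thus held the first and the third largest 6 h log2 fold changes of the module. Among 16 other genes of ethylene synthesis and methionine salvage, 4 rose and 3 fell at 24 h.

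Other enzymes gave 9 members. *TT7*, the flavonoid 3'-hydroxylase, had 13.7 and 13.9 CPM in 24hrDex, against 0.773 and 1.21 CPM in 24hrMock, while at 6 h it had 1.12 and 1.42 CPM in Dex, against 0.520 and 0.929 CPM in Mock. In a list of 9 genes of the flavonoid pathway, *F3H*, *DFR*, *LDOX* and *TT8* had at most 5 reads in each 24 h library and were not tested. The other 4 tested genes beside *TT7* rose at 24 h. Among them *CHS*, chalcone synthase, had 829 and 724 CPM in 24hrDex, against 34.1 and 28.0 CPM in 24hrMock (edgeR adjusted p = 9.31e-32). Its 6 h log2 fold change of -0.43 ± 0.16 was not called. *BGLU24*, a beta-glucosidase, had 8.21 and 8.61 CPM in 24hrDex, against 0.850 and 0.326 CPM in 24hrMock, and a log2 fold change of 2.17 ± 0.44 at 6 h. AT1G73600, a methyltransferase of the phosphoethanolamine type, had 52.2 and 47.1 CPM in 24hrDex, against 10.09 and 8.80 CPM in 24hrMock. *CYP83B1*, which diverts tryptophan products into indole glucosinolates, was the most abundant of these enzymes, with 289.9 and 268 CPM in 24hrDex, against 126 CPM in each 24hrMock library. *GPAT1*, an acyltransferase of glycerolipid synthesis, had 8.86 and 7.33 CPM in 24hrDex, against 2.71 and 2.84 CPM in 24hrMock, and among 17 other genes of cutin, suberin and the epidermis 5 rose and 2 fell. The methyl esterase *MES1*, the glyoxalase *GLYI7*, the cytochrome P450 *CYP71B29* and the glucomannan synthase *ATCSLA09* had 24 h log2 fold changes between 1.27 and 1.81.

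Signalling, defence and other proteins gave 12 members, of which AT5G16030 had the largest 24 h change of the module. It had 213 and 226 reads in 24hrDex, against 1 and 11 reads in 24hrMock, and a log2 fold change of 5.33 ± 0.38 at 24 h and 1.79 ± 0.37 at 6 h. It is overlapped by 2 annotated genes on the opposite strand. AT5G49770, a leucine-rich repeat kinase, had 6.54 and 6.04 CPM in 24hrDex, against 0.580 and 0.326 CPM in 24hrMock, and 1.41 and 0.868 CPM in 6hrDex, against 0.116 and 0.232 CPM in 6hrMock. AT5G48430, an aspartyl protease, had 34.4 and 40.3 CPM in 24hrDex, against 8.62 and 7.73 CPM in 24hrMock, and AT1G49230, a RING-type protein, 3.67 and 4.08 CPM in 24hrDex, against 0.773 and 1.07 CPM in 24hrMock. *NRP1*, a nodulin-related protein, had the highest mean 24hrDex level of the members, with 320.2 and 258 CPM in 24hrDex, against 116 and 102 CPM in 24hrMock. The others (AT2G33780, *ORS1*, AT5G12050, AT4G23515, AT3G59120 and AT2G34350) had 24 h log2 fold changes between 1.00 and 1.50, and the 3 uncharacterized members AT3G51750, AT2G31945 and AT1G75190 between 1.10 and 1.19. In all, 9 members overlap another annotated gene by their whole spans. Their counts may hold reads of that gene or lack reads that the counting set aside as ambiguous.

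The 6 h libraries of 4 members overlapped, and the ratio of the 6 h means rested on the 6hrMock B library in these. *ORS1*, which promotes organ growth, had 16.3 and 19.2 CPM in 6hrDex, against 20.4 and 3.69 CPM in 6hrMock. Its ratio of means was 1.48, and 0.871 without 6hrMock B. *IPS1* had a ratio of 1.31, and 0.894 without that library, *MYB67* 1.26 and 0.978, and *ATCSLA09* 1.37 and 1.03. The libraries of *SPX1* and *SPX3* did not overlap, but 6hrMock A was close to Dex. *SPX1* had 85.05 and 87.86 CPM in 6hrDex, against 82.4 and 55.54 CPM in 6hrMock. *SPX3* had 5.67 and 5.99 CPM in 6hrDex, against 5.09 and 3.84 CPM in 6hrMock. Without 6hrMock B neither met the 6 h limit, nor did AT3G51750, which had 3.07 and 3.14 CPM in 6hrDex, against 2.68 and 2.215 CPM in 6hrMock. Without that library 40 of the 47 members remained. The level of *ORS1* also differed between libraries of the same group at 1 h, with 14.4 and 2.47 CPM in 1hrDex and 18.02 and 3.89 CPM in 1hrMock. At 6 h, 64.7% of all tested genes had fewer CPM in 6hrMock B than in 6hrMock A, as did 29 of the 47 members.

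The members just inside and outside the limits differed little. At 24 h the lower Dex library was 2.01 times the higher Mock library in AT2G34350, 2.05 times in AT3G59120 and in AT4G23515, and 1.997 times in *FAR5*, 1.94 times in *NUDT17* and 1.93 times in *KCS3*, which were not taken. At 6 h the ratio of means was 1.25 in *SPX1* and in *CYP83B1* and 1.26 in AT1G75190, and 1.24 in AT5G03545 and 1.22 in *ABCI21*, which were not taken. The mean count at 24 h was 50.8 reads in AT1G49230, 51.3 in AT2G33780 and 56.0 in *MYB67*, and 48.3 in *GPX7*, 47.3 in AT1G48745 and 45.3 in AT4G14730, which were not taken.

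The 1 h libraries, which did not choose the members, were used to ask whether the module already differed 1 h after the steroid. edgeR's quasi-likelihood test with Benjamini-Hochberg adjustment over all 20447 tested genes called 0 of the 46 members tested and 0.0% of all genes at an adjusted p under 0.01, while DESeq2 called 3 members and 53 genes (0.218% of 24355). With 1 library left out edgeR called 12 members and 1705 genes without 1hrDex A and 4 members and 139 genes without 1hrDex B, and 0 members without either 1hrMock library. At an unadjusted p under 0.05, 7 members were higher in Dex, where 2.42% of all tested genes were, and 2 were lower, where 1.89% were. Among the 121 tested genes that met only the 24 h limits, 3 were higher and 16 lower at this p. The median log2 fold change was 0.07 for the members (from -1.36 to 1.15), -0.01 for all tested genes and -0.11 for the genes that met only the 24 h limits.

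Both Dex libraries were above both Mock libraries at 1 h in 13 members (28.3%), where 11.4% of all tested genes were, and below them in 10 (21.7%), where 20.8% of all tested genes were. With CPM scaled by TMM factors the counts were 16 and 8 members, and 15.7% and 15.5% of all tested genes. Of the genes that met only the 24 h limits, 9.09% were above and 43.8% below. The members thus held more genes with separated, higher Dex libraries at 1 h than did all genes or the genes of 24 h only. edgeR's main test, which does not pair the libraries, called none of them. With the letters A and B in the fit as a replicate block it called 9 members, *DIN2* and *IPS1* lower and the others higher. The labels do not say that A and B pair the samples.

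The 8 members with the largest separated 1 h log2 fold changes were AT1G49230, *bZIP42*, *LSH1*, AT5G48430, *ASN1*, AT2G26390, *EFE* and *SUC1*. AT5G48430 had 47.5 and 42.2 CPM in 1hrDex, against 28.3 and 27.4 CPM in 1hrMock, a log2 fold change of 0.75 ± 0.09 with an edgeR adjusted p of 0.295, and 0.000355 by DESeq2. For *LSH1*, whose 1 h values are given above, the edgeR adjusted p was 0.401 and that of DESeq2 0.000494. AT1G49230 had 2.49 and 3.39 CPM in 1hrDex, against 1.47 and 1.31 CPM in 1hrMock, and *bZIP42* had 0.676 and 0.417 CPM in 1hrDex, against 0.320 and 0.242 CPM in 1hrMock. AT2G26390 had 12.04 and 11.4 CPM in 1hrDex, against 7.44 and 8.84 CPM in 1hrMock. These 8 genes had 1 h log2 fold changes between 0.56 and 1.15. Each was higher in 2 of 2 Dex libraries than in either Mock library, as their choice required. Among the members below Mock, *DIN2* had a log2 fold change of -0.80 ± 0.18 (edgeR adjusted p = 0.769, DESeq2 adjusted p = 0.00752) and *IPS1* of -1.36 ± 0.48 (edgeR adjusted p = 0.953), with 1.80 and 0.713 CPM in 1hrDex, against 4.35 and 2.30 CPM in 1hrMock.

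**Figure D3:**
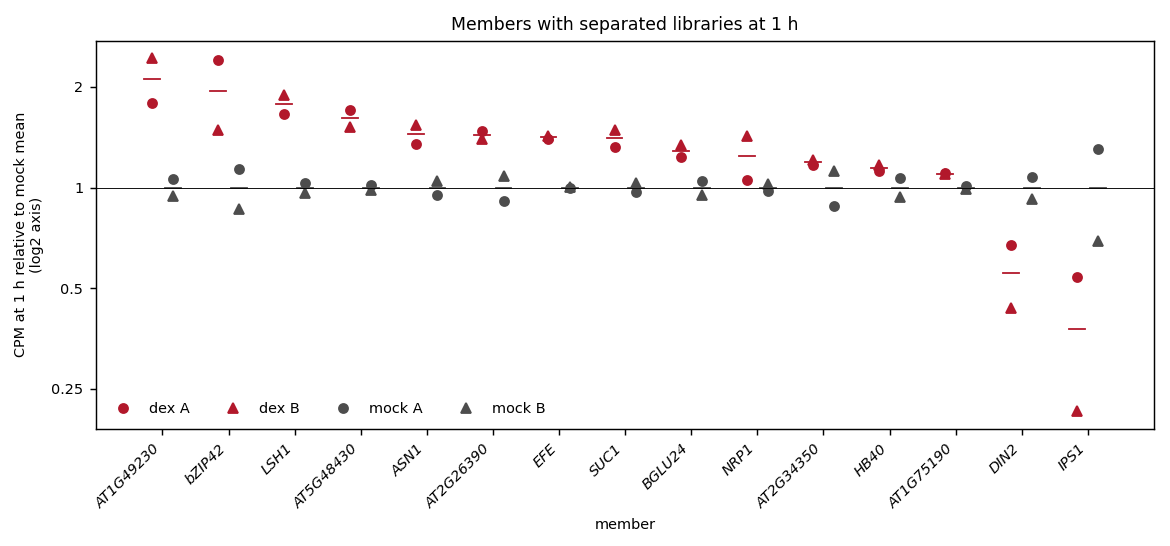
The plot shows the 1 h level of 15 members in each library (Dex red, Mock grey, circles for A and triangles for B, short lines for the means) as CPM divided by the mean of the 1hrMock libraries, on a log2 axis. These are the 13 members with both Dex libraries above Mock, ordered by their ratio, and *DIN2* and *IPS1*, which were below with an unadjusted p under 0.05.

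The Mock levels of the members also differed between times, although all explants spent the same time on the medium. Both 24hrMock libraries were below both 1hrMock libraries in 26 members, where 33.0% of all genes tested at 24 h were, and above in 14, where 41.4% of all genes were. In 34 members both 24hrDex libraries exceeded all 4 Mock libraries of 1 h and 6 h, where 24.4% of all genes tested at 24 h did, and in 13 they did not. The 24hrDex and 24hrMock libraries both chose the members, and a low 24hrMock level favoured the choice of a gene. All counts of this paragraph are therefore a description. *CUC2* and *TCP1* are examples of the 34 members, with lower 24hrDex libraries at 11.5 and 16.7 times the highest Mock library of 1 h and 6 h. *ARD3* and AT5G49770 reached 17.1 and 20.2 times. In 4 members (*MES1*, AT4G23515, *cwINV6* and *SPX1*) both 24hrDex libraries were below both 1hrMock libraries. *SPX1* had 53.0 and 74.0 CPM in 24hrDex, against 141 and 108 CPM in 1hrMock, and *MES1* 5.35 and 5.37 CPM in 24hrDex, against 14.5 and 17.3 CPM in 1hrMock. For these genes the 24hrMock mean was 0.144 (*SPX1*) and 0.136 (*MES1*) of the 1hrMock mean. At 24 h these genes were thus higher in Dex than in Mock without reaching their 1 h Mock level. The libraries of different times were not compared by a test.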

How the data were processed

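Root explants of 35S:LFY-GR plants were sequenced in 12 libraries (6 groups, labelled A and B). The authors trimmed reads (Trimmomatic 0.36), mapped them (STAR, version 2.5.3a per the labels) to TAIR10 and counted them on genes without using the strand (HTSeq 0.7.2), and they deposited raw counts, whole numbers of reads per gene. The files' 5 tallies of reads not given to a gene were left out. In the files, between 1.04% and 2.83% of reads fell on no gene, between 2.01% and 2.51% were ambiguous and between 6.9% and 22.2% mapped to several places.

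CPM were counts divided by the sum over gene rows, times 1000000. Dex and Mock were compared at each time with edgeR 4.0.16 (filterByExpr, TMM, quasi-likelihood test, limma 3.58.1, R 4.3.3), with Benjamini-Hochberg adjustment over all genes tested. The study's methods call the libraries of a group biological replicates, without saying whether they come from separate cultures, and p-values measure the spread between these libraries. The script was tested on simulated counts. Gene positions and sequences came from the RefSeq TAIR10.1 assembly, to which all 47 members matched.

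The members, the gene lists and the tests were chosen with earlier results of these data known. The genes named were those with the 10 largest 24 h, 8 largest 6 h and 8 largest separated 1 h log2 fold changes, members of the lists, and genes next to the limits. The role groups, the phosphate list and the other members described were chosen after their values were seen. Alternatives were RLE normalization, no filter on low counts, a replicate block, all 12 libraries in 1 fit, DESeq2 1.42.0, TMM scaled CPM, a mean count of 100, an adjusted p under 0.05, and leaving out each library.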

Additional observations from a re-analysis of the deposited data

Results flagged for a closer look

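In 9 members both Dex libraries were below both Mock libraries at 1 h and above them at 6 h and at 24 h, and the difference between the times was not tested. The ratio of the mean CPM of Dex to that of Mock at 1 h was 0.380 in *ARD3*, 0.553 in *DIN2*, 0.597 in AT5G49770, 0.685 in *CYP71B29*, 0.754 in AT5G16030, 0.781 in *GA20OX1*, 0.826 in *GAT1_2.1*, 0.867 in AT1G73600 and 0.868 in *WIP4*. At 1 h, 20.8% of all tested genes had both Dex libraries below Mock, and 15.5% with CPM scaled by TMM factors. *ARD3*, AT5G49770 and AT5G16030 had at most 20 reads in each 1 h library.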

How the results depend on the processing

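At 1 h, edgeR called 0 of all genes, against 7 without a filter on low counts, 24 with all 12 libraries in 1 fit, 53 by DESeq2 and 1 at an adjusted p under 0.05. Of the members it called 0, against 1 with all 12 libraries in 1 fit and 3 by DESeq2. At 6 h it called 1 gene, against 2 without the filter, 24 with all 12 libraries and 189 by DESeq2, and at 24 h 2995 genes, against 1546 with all 12 libraries.

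With a replicate block, 413 genes and 9 members were called at 1 h, 84 genes at 6 h and 3447 at 24 h. The members called were *EFE*, AT1G49230, *SUC1*, AT2G26390, *ASN1*, *LSH1* and AT5G48430, higher in Dex, and *DIN2* and *IPS1*, lower. The labels do not say that the letters A and B pair the samples. Across tested genes, the difference between A and B in Dex correlated with that in Mock with r = 0.621 at 1 h, -0.0826 at 6 h and 0.0663 at 24 h.

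Leaving out 1 library gave between 0 and 1705 genes and between 0 and 12 members called at 1 h, most without 1hrDex replicate A. It gave between 1 and 8275 genes at 6 h, most without 6hrMock replicate A, and between 2196 and 2817 at 24 h. A single library against 2 is then assumed to vary like the others, and the cause was not tested. The median 1 h log2 fold change of the members stayed between 0.03 and 0.08. At 6 h the log2 fold change ran from -0.18 to 2.195 in *ORS1*, from -0.14 to 1.202 in *IPS1* and from -0.012 to 0.75 in *MYB67*, lowest without 6hrMock replicate B and highest without 6hrMock replicate A. Without the same libraries the ratio of mean CPM ran from 0.871 to 4.82 in *ORS1*, from 0.894 to 2.42 in *IPS1* and from 0.978 to 1.78 in *MYB67*. These ratios were recomputed after seeing the data.

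The limits of the module gave 41 genes with TMM scaled CPM and 32 at a mean count of 100, all of them members, and between 42 and 75 when a library was left out, most without 24hrMock replicate B. Under the alternatives run, the members' log2 fold changes were higher than 0 at 24 h in every fit. This follows from the 24 h limit that chose the members and is no check on them.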
